A study of Homo sapiens with 9 samples.

Results

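The inflammatory chemokines, interleukins and cyclooxygenase 2 of HaCaT keratinocytes were followed here in lines that carried extra actin. The 10 genes were the chemokines CCL2, CXCL8 (also written IL8), CXCL1, CXCL2, CXCL3 and CCL20, the interleukins IL1A, IL1B and IL6, and PTGS2, which encodes cyclooxygenase 2. The members were every probe set of the array annotated to 1 of these 10 genes alone, which gave 16 of 54613 probe sets, and the 10 genes were 10 of 19775 genes with a probe set of their own. The study profiled 3 lines on 9 whole-genome arrays, 3 arrays a line. NLS-actin cells were HaCaT cells stably expressing β-actin fused to GFP and to a nuclear localization sequence, which carries the actin into the nucleus. WT-actin cells stably expressed the wild type β-actin-GFP fusion without that sequence, and parental HaCaT cells received no construct. Each construct was represented by 1 drug-selected line, so that the construct and the history of its line cannot be told apart, and GFP is present in both actin lines but not in the parental cells. HaCaT is an immortalised human line of epidermal keratinocytes.

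These genes share a textbook circuit. Interleukin 1 released by stressed keratinocytes binds its receptor on neighbouring cells, the signal passes through the IRAK kinases to the transcription factor NF-κB, and NF-κB together with AP-1 and C/EBP factors switches on the chemokines, IL6 and PTGS2. CCL2 then draws monocytes, the CXC chemokines draw neutrophils, CCL20 draws lymphocytes and dendritic cells, and cyclooxygenase 2 starts the synthesis of prostaglandins.

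Expression is given as the MAS5 signal, a linear intensity that the authors scaled to the same trimmed mean on every array. The median signal of all probe sets lay between 29.67 and 43.26 over the arrays, and a signal below the median of its own array is called dim here because detection calls were not used. A change was called when its adjusted p was under 0.05 in a limma fit of log2 signals over all 19775 genes, where the adjusted p allows for the number of genes tested. The basal keratins identified the cells: KRT5 ranged from 6373 to 12753 and KRT14 from 7816 to 13829 over the 9 arrays, and the desmosome gene DSP from 5838 to 9545. Of 6 measured leukocyte markers, 5 were dim on every array, PTPRC (CD45) among them. The summed signal of the 6 was 117 to 214.8 in NLS-actin, 43.6 to 90.9 in WT-actin and 75.1 to 146.7 in parental cells, most of it from CD14 in NLS-actin cells. CD14 itself was 84.9 to 139.7, 13.8 to 25.3 and 35.6 to 119 in the 3 lines in the same order. Of 8 fibroblast markers 6 were dim on every array, and their sum was 487 to 1219, 318 to 1158 and 494 to 973 in NLS-actin, WT-actin and parental cells, most of it from COL1A1, which ranged from 284 to 1057. Of 6 endothelial markers 4 were dim on every array, with sums of 82.7 to 236.6, 43.9 to 118.8 and 79.9 to 127.3. The part of other cells in the results was not tested. Arrays are of whole cultures, so that fewer cells making a transcript and less transcript in each cell cannot be told apart.

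One array of each line stood apart within its line: NLS-actin replicate 2, WT-actin replicate 1 and parental replicate 2 deviated from their lines in the same direction, along a component with 57.9 percent of the within-line variance. The ratio of the 3′ to the 5′ probe set of GAPDH, a measure of RNA integrity, was 3.07 on WT-actin replicate 1 and 1.39 to 1.95 on the other 8 arrays. The same ratio of ACTB was highest in its line on each of the 3 arrays that stood apart, at 12.8 against 6.96 and 7.98 in NLS-actin, 14.9 against 6.79 and 3.82 in WT-actin, and 7.96 against 5 and 6.28 in parental cells. Parental replicate 2 was the lowest parental array for 8 of the 10 genes. The part of these arrays in the differences below was not tested, but the fit without the 3 of them is given where it changes a call.

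CCL2, the main monocyte chemoattractant, was lower in NLS-actin cells than in either WT-actin or parental cells. Its signal was 390.1, 367 and 181 on the NLS-actin arrays, 2358, 1533 and 728 on the WT-actin arrays, and 1481, 1278 and 2009 on the parental arrays. All 3 NLS-actin arrays lay below all 6 others, whereas the WT-actin arrays spread on both sides of the parental ones. The mean was 313 ± 115 in NLS-actin, 1540 ± 815 in WT-actin and 1590 ± 377 in parental cells (SD, n = 3 arrays each). The log2 fold change was -2.40 ± 0.40 (SE) in NLS-actin against parental cells, a 5.28-fold lower signal, with an adjusted p of 0.0482 by limma. It was -2.22 ± 0.40 against WT-actin cells, 4.67-fold lower, with an adjusted p of 0.0234. WT-actin against parental cells gave -0.18 ± 0.40 with a 95 percent interval from -1.04 to 0.69. CCL2 had only 1 probe set, so that no second one could be set beside it. The call against parental cells stood close to the threshold. It was kept without WT-actin replicate 1, without WT-actin replicate 3 and without the 3 arrays that stood apart, and it was lost when any 1 of the other 7 arrays was left out. The log2 fold change stayed between -2.70 and -2.04 over all 21 alternatives, with adjusted p from 0.000225 to 0.767.

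**Figure D1:**
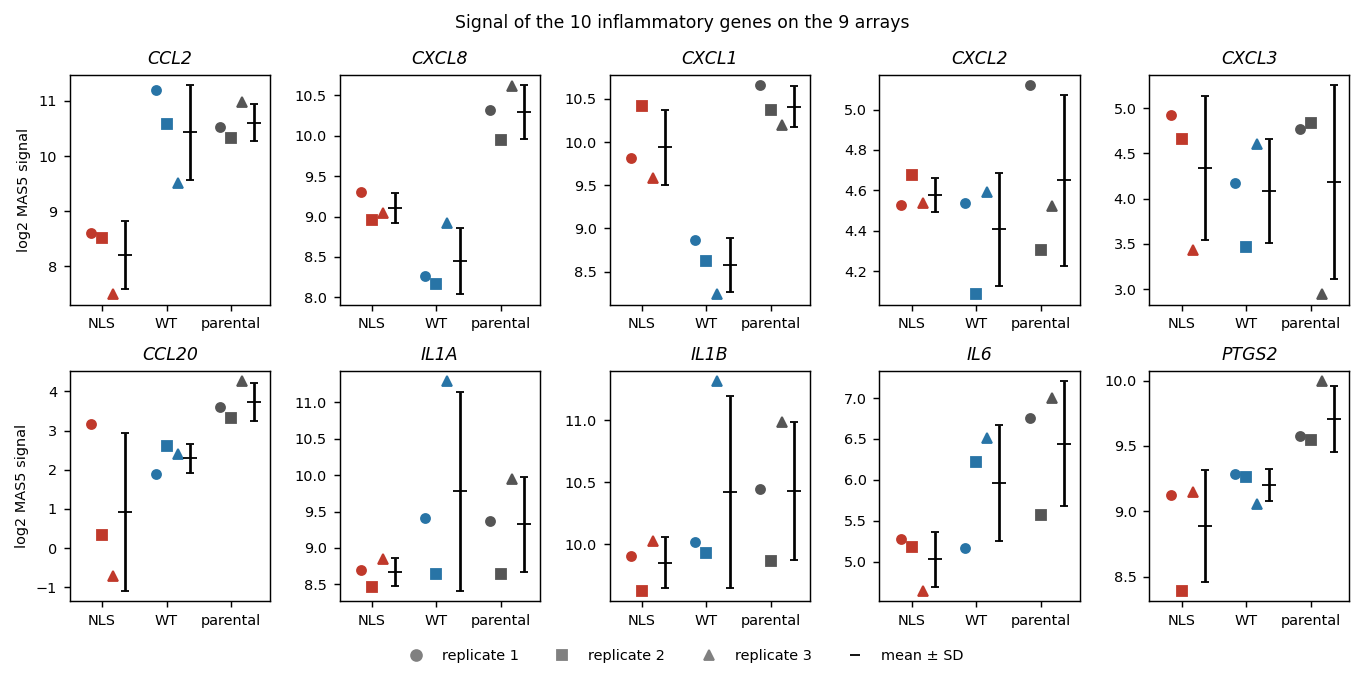
Log2 MAS5 signal (vertical axis, a different range in each panel) of the brightest probe set of each of the 10 genes in NLS-actin, WT-actin and parental cells. Points are single arrays with a shape for each replicate number, and the bar is the mean ± SD of 3 arrays. CCL2 is low on the 3 NLS-actin arrays, CXCL1 is low on the 3 WT-actin arrays and CXCL8 is below the parental arrays in both lines.

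The neutrophil chemokines gave another pattern. CXCL8 (interleukin 8) and CXCL1 act on neutrophils through the receptor CXCR2, and both were lower in WT-actin cells than in the parental line. The signal of CXCL8 was 634, 498 and 529.6 in NLS-actin, 307, 287 and 485 in WT-actin, and 1275, 989.7 and 1573 in parental cells. No array of either actin line reached the lowest parental array, and the NLS-actin arrays lay just above the WT-actin arrays. Means were 554 ± 71, 359.8 ± 109 and 1279 ± 292 in NLS-actin, WT-actin and parental cells (SD, n = 3 each). In WT-actin against parental cells the log2 fold change was -1.85 ± 0.24 (SE), 3.59-fold lower, with an adjusted p of 0.00839 by limma. In NLS-actin against parental cells it was -1.19 ± 0.24, a value 2.28-fold lower that was not called, with an adjusted p of 0.128. NLS-actin against WT-actin cells gave 0.66 ± 0.24, with an interval from 0.12 to 1.19 and an adjusted p of 0.374, so that the lines were not shown to differ in CXCL8. A dimmer probe set of CXCL8 read 34.1, 23.1 and 28.3 in NLS-actin, 11.8, 20.8 and 48.3 in WT-actin and 87.1, 66.5 and 90.2 in parental cells. It showed the same separation of both actin lines from the parental arrays.

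CXCL1 differed between the actin lines. Its signal was 902, 1371 and 766 in NLS-actin, 466, 395 and 302 in WT-actin, and 1619.7, 1324 and 1174 in parental cells. The 3 WT-actin arrays lay below all 6 others, while NLS-actin replicate 2 lay among the parental arrays and the other two below them. Means were 1013 ± 317, 388 ± 82 and 1373 ± 227 (SD, n = 3 each) in NLS-actin, WT-actin and parental cells. WT-actin against parental cells had a log2 fold change of -1.83 ± 0.24 (SE), 3.56-fold lower, with an adjusted p of 0.00839 by limma. It was 1.36 ± 0.24 in NLS-actin against WT-actin cells, 2.57-fold higher, with an adjusted p of 0.0244. NLS-actin against parental cells gave -0.47 ± 0.24, with an interval from -1.002 to 0.06. The CXCL8 and CXCL1 calls in WT-actin cells were both lost without WT-actin replicate 2 and without parental replicate 1, and CXCL8 alone without parental replicate 3. The call between the actin lines was lost for CXCL1 without NLS-actin replicate 1 or 2 or WT-actin replicate 2 or 3. For CCL2 it was lost without NLS-actin replicate 1 or 3, WT-actin replicate 1 or 2, or parental replicate 1.

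CXCL2 and CXCL3, close relatives of CXCL1 with the same receptor, were dim on all 9 arrays. The brightest of 3 CXCL2 probe sets read 23.0 to 25.5 in NLS-actin, 16.99 to 24.2 in WT-actin and 19.8 to 34.8 in parental cells, and the other two did not exceed 20.04 on any array. CXCL3 read 10.8 to 30.4, 11.05 to 24.3 and 7.70 to 28.5 in NLS-actin, WT-actin and parental cells. The lines overlapped throughout, and the log2 fold changes lay between -0.24 and 0.25 with standard errors of 0.49 for CXCL2 and 0.70 for CXCL3. At such levels the intervals were wide. In WT-actin against parental cells they ran from -1.32 to 0.84 for CXCL2 and from -1.62 to 1.42 for CXCL3. Neither held the CXCL1 value of -1.83. In NLS-actin against WT-actin cells they ran from -0.91 to 1.25 for CXCL2 and from -1.27 to 1.77 for CXCL3. There the CXCL1 value of 1.36 was held by the CXCL3 interval and not by that of CXCL2. The brightest CXCL8 and CXCL2 probe sets have names ending in _x_at, the array maker's mark for probes that can also bind other transcripts.

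The reference promoters of these chemokines are shown because CXCL8 and CXCL1 were both called lower in WT-actin cells, while 2 relatives with nearly the same promoter as CXCL1 were dim in every line. The windows come from RefSeq on GRCh38.p14 and cover the 150 bases just before the annotated start, written 5′ to 3′ on the strand of the gene. Capitals mark matches to the NF-κB motif GGRRNNYYCC or to the core GGAATTTCC. In these letters R is A or G, Y is C or T, and N is any base.
CXCL8, chr4:73740419-73740568, plus strand: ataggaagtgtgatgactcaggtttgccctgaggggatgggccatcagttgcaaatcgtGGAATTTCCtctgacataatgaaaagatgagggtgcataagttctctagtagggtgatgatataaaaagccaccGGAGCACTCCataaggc
CXCL1, chr4:73869243-73869392, plus strand: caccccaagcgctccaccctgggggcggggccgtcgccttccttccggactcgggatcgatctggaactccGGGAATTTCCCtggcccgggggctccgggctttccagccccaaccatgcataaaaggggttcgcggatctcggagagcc
CXCL2, chr4:74099196-74099345, minus strand: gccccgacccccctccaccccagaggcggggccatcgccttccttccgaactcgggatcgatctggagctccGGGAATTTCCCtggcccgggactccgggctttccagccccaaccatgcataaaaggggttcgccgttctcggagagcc
CXCL3, chr4:74038690-74038839, minus strand: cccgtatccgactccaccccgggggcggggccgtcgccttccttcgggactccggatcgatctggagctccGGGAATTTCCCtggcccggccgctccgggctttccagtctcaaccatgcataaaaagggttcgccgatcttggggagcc
The CXCL1 window was 88.7 percent identical to that of CXCL2 and 88.1 percent identical to that of CXCL3 after alignment, against 42.9 percent to that of CXCL8. The core GGAATTTCC began 91 bases before the start in CXCL8, 78 bases before it in CXCL1 and CXCL3, and 77 bases before it in CXCL2. The core was searched after the sequences had been seen, and it occurred on either strand in 0.413 percent of all 35116 RefSeq windows of 250 bases before a start. In CXCL8 a match to TGANTCA, the AP-1 motif, lay 137 bases before the start. In gene order these chemokines sit on chromosome 4 as CXCL8, CXCL6, PF4V1, CXCL1, PF4, PPBP, CXCL5, CXCL3 and CXCL2. CXCL6, another neutrophil chemokine that was picked after its values were seen, read 122, 214 and 191 in NLS-actin, 146, 224 and 110.2 in WT-actin and 359.7, 357 and 234 in parental cells. All 6 actin-line arrays lay below the lowest parental array, but neither log2 fold change was called (-0.86 ± 0.33 and -1.02 ± 0.33 in NLS-actin and WT-actin cells, adjusted p by limma of 0.66 and 0.54).

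CCL20, the ligand of CCR6, and IL6 were dim or not far above the array median. CCL20 read 8.97, 1.27 and 0.61 in NLS-actin, 3.69, 6.04 and 5.33 in WT-actin, and 12.2, 9.98 and 19.1 in parental cells. Both actin lines lay below the parental arrays, yet all 9 signals were below the median of their arrays, and 2 NLS-actin arrays were near the floor of the scale. Its log2 fold change of -2.80 ± 1.02 in NLS-actin against parental cells was not called, with an adjusted p of 0.617 by limma, and ran from -3.92 to -0.95 over the alternatives. IL6, the driver of the acute phase response, read 38.6, 36.1 and 25.04 in NLS-actin, 35.8, 74.5 and 91.0 in WT-actin, and 107.8, 47.7 and 128 in parental cells. The NLS-actin arrays lay below the lowest parental array, while WT-actin replicate 1 lay among the NLS-actin arrays. The log2 fold change of IL6 in NLS-actin against parental cells was -1.41 ± 0.50 with an interval from -2.50 to -0.33, again without a call (adjusted p of 0.573 by limma). Both genes carry the NF-κB motif in their reference promoters, and their windows are given with the same capitals.
CCL20, chr2:227813692-227813841, plus strand: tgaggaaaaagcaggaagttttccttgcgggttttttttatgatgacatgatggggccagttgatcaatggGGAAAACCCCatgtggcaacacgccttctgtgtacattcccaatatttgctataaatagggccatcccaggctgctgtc
IL6, chr7:22727050-22727199, plus strand: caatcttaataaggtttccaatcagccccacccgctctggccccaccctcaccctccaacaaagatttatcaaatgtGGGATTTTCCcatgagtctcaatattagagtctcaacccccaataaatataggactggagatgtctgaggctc
The NF-κB motif was found on either strand in the 250 bases before the start in 6 of 9 genes that had a reference window (CXCL8, CXCL1, CXCL2, CXCL3, CCL20 and IL6) and in 12.3 percent of all windows. The CXCL8 match counted here was GGAGCACTCC, 17 bases before the start, since the core GGAATTTCC at 91 bases does not match this motif. TGANTCA was found in 2 genes, CXCL8 and IL1A, and in 6.57 percent of windows. TTNNGNAAT, the C/EBP motif, was found in 4 genes, PTGS2, IL1A, IL1B and IL6, and in 9.85 percent of windows. The CArG motif of SRF, a transcription factor that responds to actin, was found in 0 of the 9 genes and in 1.16 percent of windows. CCL2 was the member without a reference window, so none of these motif counts covers it. These are matches of letters and not binding sites.

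The interleukin 1 genes were bright, and they varied widely among the WT-actin arrays and among the parental arrays. IL1A and IL1B encode the cytokines that keratinocytes store or process and release on damage. IL1A read 413, 353 and 459 in NLS-actin, 679, 398.5 and 2501 in WT-actin, and 663, 400.2 and 990.2 in parental cells. IL1B read 957, 792 and 1043 in NLS-actin, 1038, 978 and 2544 in WT-actin, and 1393, 934 and 2023 in parental cells. WT-actin replicate 3 was the highest of all 9 arrays for both genes, the NLS-actin arrays were the most even, and the lines overlapped. The log2 fold changes in NLS-actin against parental cells were -0.66 ± 0.53 for IL1A and -0.58 ± 0.35 for IL1B, with intervals from -1.81 to 0.50 and from -1.34 to 0.19. In WT-actin against parental cells they were 0.46 ± 0.53 and -0.01 ± 0.35. Without WT-actin replicate 3 the value for IL1A turned to -0.30. The second IL1B probe set followed the first, with 764, 744 and 809 in NLS-actin, 850.5, 817 and 2363 in WT-actin, and 1202, 799.7 and 1721 in parental cells, so that the high array was seen by both. The second IL1A probe set was dim, at 7.82 to 28.8 over the 9 arrays.

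PTGS2, the inducible cyclooxygenase, read 558, 336 and 566 in NLS-actin, 623, 613 and 533 in WT-actin, and 764, 748 and 1020.1 in parental cells. Every array of both actin lines lay below the lowest parental array, and the actin lines overlapped each other. Means were 487 ± 131, 589.6 ± 49 and 844 ± 153 (SD, n = 3 each) in NLS-actin, WT-actin and parental cells. Against parental cells the log2 fold change was -0.82 ± 0.23 (SE) in NLS-actin cells, a value 1.76-fold lower, and -0.51 ± 0.23 in WT-actin cells, 1.42-fold lower. Neither was called, with adjusted p of 0.352 and 0.746 by limma. The dimmer PTGS2 probe set read 0.79 to 14.5, 10.1 to 12.8 and 6.77 to 17.5 in NLS-actin, WT-actin and parental cells.

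**Figure D2:**
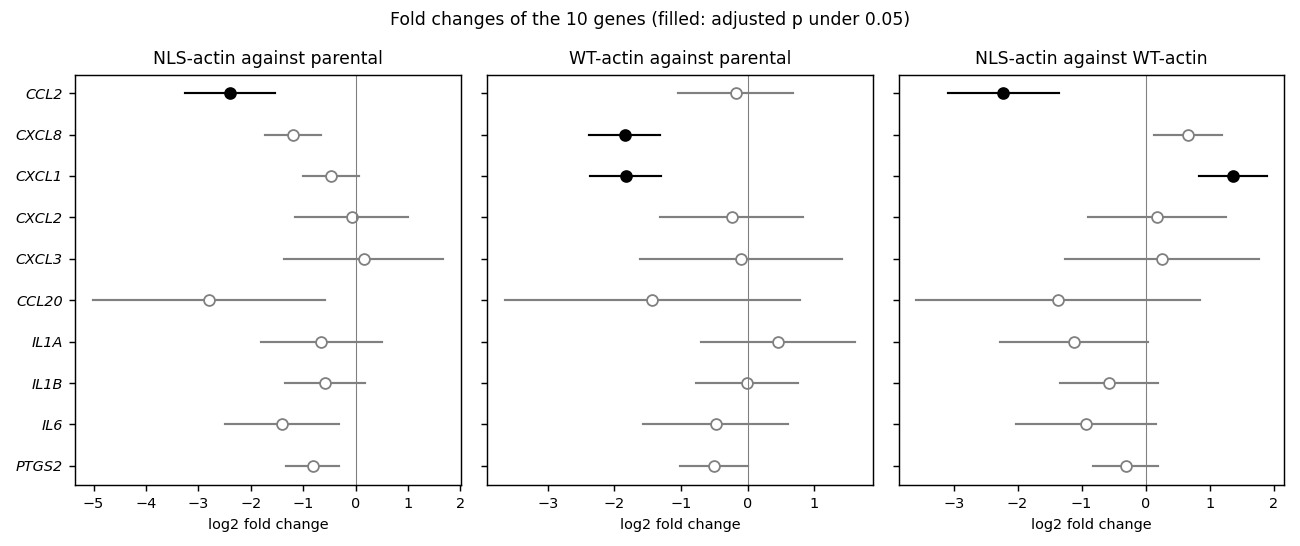
Log2 fold change (horizontal axis) of the 10 genes in NLS-actin against parental, WT-actin against parental and NLS-actin against WT-actin cells, with 95 percent intervals from the limma fit as lines. Filled points passed an adjusted p of 0.05: CCL2 at -2.40 and -2.22, CXCL8 at -1.85, and CXCL1 at -1.83 and 1.36.

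Taking the 10 genes by count, 1 (CCL2) was called lower in NLS-actin against parental cells, where 0.111 percent of all genes were called lower. In WT-actin against parental cells 2 (CXCL8 and CXCL1) were called lower, where 0.126 percent of all genes were. NLS-actin against WT-actin cells gave 1 member lower (CCL2) and 1 higher (CXCL1), where 0.339 percent of all genes were called lower and 0.389 percent higher. No member was called higher in either actin line against the parental cells. None of these calls was kept under Tukey's test adjusted over all genes, or in a fit without the intensity trend. The study names Tukey's test in its general statistics. For the arrays it names no test and gives only a p cut-off of 0.05 and a fold above 2. At an unadjusted p under 0.05 with a fold above 2, the lower members were CCL2, CXCL8, CCL20 and IL6 in NLS-actin cells (4 of 10, against 1.99 percent of all genes). In WT-actin cells they were CXCL8 and CXCL1 (2 of 10, against 2.13 percent), and none was higher in either comparison. Between the actin lines 1 was lower by this rule (CCL2, against 1.99 percent) and 1 higher (CXCL1, against 2.86 percent). The 3 NLS-actin arrays lay below the 3 parental arrays for 5 members (CCL2, CXCL8, CCL20, IL6 and PTGS2), where 7.50 percent of all genes did so. The 3 WT-actin arrays did so for 4 (CXCL8, CXCL1, CCL20 and PTGS2), where 7.60 percent of genes did. Between the actin lines, NLS-actin arrays lay below WT-actin arrays for CCL2 (5.73 percent of all genes) and above them for CXCL8 and CXCL1 (8.12 percent).

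In both comparisons with the parental line 9 of 10 fold changes were below 0, the exceptions being CXCL3 in NLS-actin cells and IL1A in WT-actin cells. Over all genes 50.6 percent were below 0 in NLS-actin and 56.3 percent in WT-actin cells. The median log2 fold change of the 10 genes was -0.74 in NLS-actin against parental cells and -0.36 in WT-actin against parental cells, where the median of all genes was -0.01 and -0.06. The 2 comparisons share the parental arrays, so that their likeness is not counted as a result. The parental line had the highest mean log2 signal for 8 of the 10 genes. NLS-actin cells had the lowest for 6 (CCL2, CCL20, IL6, IL1A, IL1B and PTGS2) and WT-actin cells for 4, which were the CXC chemokines CXCL8, CXCL1, CXCL2 and CXCL3. Most of these orders rested on values that overlapped: NLS-actin and WT-actin arrays were apart only for CCL2, CXCL8 and CXCL1.

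**Figure D3:**
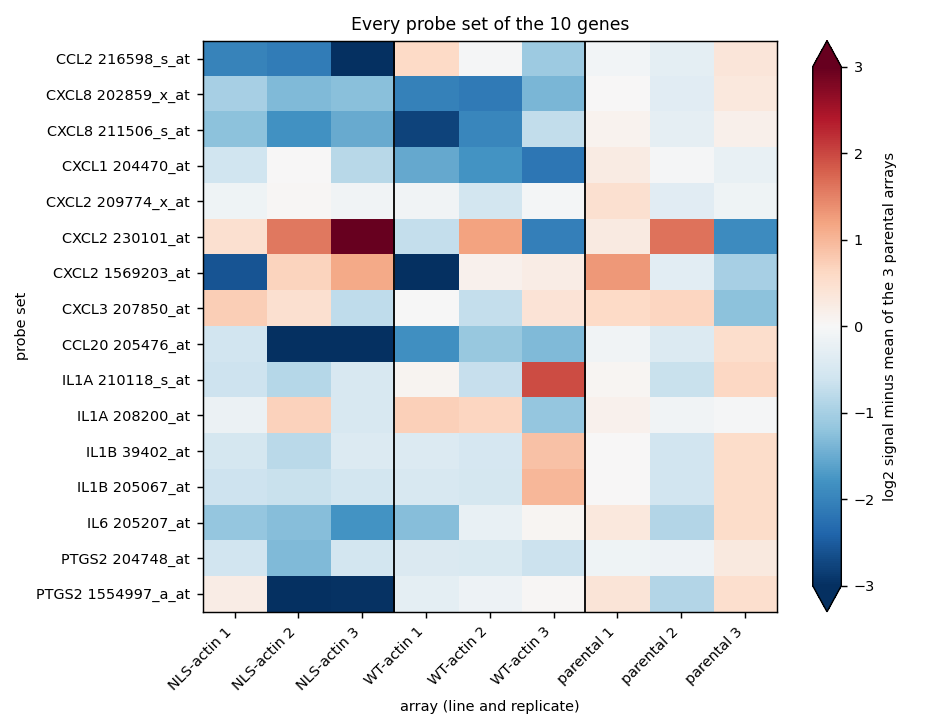
Log2 signal minus the mean of the 3 parental arrays (colour, blue for lower and red for higher, held at 3 in either direction) for all 16 probe sets of the 10 genes on the NLS-actin, WT-actin and parental arrays from left to right. CCL2 is blue on the NLS-actin arrays, both CXCL8 probe sets are blue on all 6 actin-line arrays, and the brighter IL1A and both IL1B probe sets are red on WT-actin replicate 3, where the dim IL1A probe set is blue; the strong colours of CXCL2, CCL20 and the second PTGS2 probe set belong to dim signals.

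The replicate numbers were taken to pair the NLS-actin and parental arrays, a pairing inferred from these same data that the labels do not state. A fit of these 6 arrays alone with the number as a block, chosen after the data were seen, called 3 of the 10 genes. CCL2 had an adjusted p of 0.000225, CXCL8 of 0.00145 and PTGS2 of 0.0215 by limma, with the same fold changes as above, and no member was higher. In that fit 1.19 percent of all genes were called lower. With the block on these 6 arrays but the WT-actin arrays kept in the fit, none of the 10 was called, and CCL2 had an adjusted p of 0.0626, CXCL8 of 0.1 and PTGS2 of 0.183.

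The members were next set beside the genes around them in the circuit, from lists of other chemokines, other cytokines, receptors, NF-κB feedback genes and the prostanoid pathway. Of 16 measured NF-κB feedback genes, which NF-κB induces and many of which restrain it, 1 was called lower in NLS-actin against parental cells, none in WT-actin against parental cells, and none was called higher. The called gene was IRAK2, a kinase of the interleukin 1 receptor complex. It read 63.2, 107 and 82.2 in NLS-actin, 346, 254 and 332 in WT-actin, and 362, 292 and 395 in parental cells. The NLS-actin arrays lay far below all the others, and the WT-actin and parental arrays overlapped. IRAK2 had a log2 fold change of -2.08 ± 0.27 against parental cells and -1.91 ± 0.27 against WT-actin cells, with adjusted p of 0.0127 and 0.00662 by limma. The pattern of IRAK2 over the lines was like that of CCL2. IRAK2 has 2 further probe sets, both dim, and these did not show it: their log2 fold changes against WT-actin cells were 2.35 and 2.52. With the mean of its 3 probe sets the value against parental cells was -0.08 (adjusted p of 0.992 by limma). The IRAK2 call against parental cells was also lost without the intensity trend, in a fit of 2 lines, under Tukey's test, and without NLS-actin replicate 1 or 3 or parental replicate 1 or 3, and the call against WT-actin cells was kept without any 1 array but lost under Tukey's test and with the mean of the probe sets, which turned its sign. NFKBIA, the inhibitor that NF-κB induces against itself, was picked after its values were seen. It read 486, 601.5 and 451 in NLS-actin, 394, 414 and 471 in WT-actin, and 778, 657 and 709 in parental cells. All 6 actin-line arrays lay below the parental ones, and neither fold change was called (-0.49 ± 0.19 in NLS-actin and -0.75 ± 0.19 in WT-actin cells, adjusted p by limma of 0.66 and 0.275). Over the whole list the median was -0.17 in NLS-actin and -0.16 in WT-actin against parental cells on the log2 scale.

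Of 16 receptor genes, 1 was called, between the actin lines. IL1R1, the signalling receptor for interleukin 1, read 548, 702.5 and 513 in NLS-actin, 211, 278 and 260.3 in WT-actin, and 484, 383 and 299 in parental cells. The NLS-actin arrays were above and the WT-actin arrays below all parental arrays. The log2 fold change between NLS-actin and WT-actin cells was 1.23 ± 0.24, with an adjusted p of 0.0388 by limma, and it was lost when any 1 array other than parental replicate 3 was left out. Against the parental line it was 0.61 ± 0.24 in NLS-actin and -0.62 ± 0.24 in WT-actin cells, neither of them called. A second, dimmer IL1R1 probe set read 31.3 to 61.6 in NLS-actin, 16.99 to 30.8 in WT-actin and 25.7 to 67.4 in parental cells. There both actin lines overlapped the parental arrays, with log2 fold changes of 0.02 in NLS-actin and -0.73 in WT-actin cells. The median of the receptor list was -0.11 in NLS-actin and -0.14 in WT-actin against parental cells, and 0.15 in NLS-actin against WT-actin cells.

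The prostanoid pathway, in which cyclooxygenases 1 and 2 turn arachidonic acid into prostaglandins, held 2 called genes in WT-actin cells. Of its 16 genes besides PTGS2, PTGS1 and SLCO2A1 were called lower in WT-actin against parental cells and none in NLS-actin against parental cells. PTGS1, which encodes cyclooxygenase 1, read 850.3, 1292 and 734 in NLS-actin, 138, 72.4 and 182 in WT-actin, and 1082, 1024 and 931 in parental cells. SLCO2A1, the prostaglandin transporter, read 1426, 746 and 1510.2 in NLS-actin, 135, 245 and 311 in WT-actin, and 1323, 833 and 965 in parental cells. For both genes the WT-actin arrays were far below every other array, while NLS-actin and parental arrays overlapped. The log2 fold changes in WT-actin against parental cells were -3.05 ± 0.32 for PTGS1 and -2.23 ± 0.34 for SLCO2A1, with adjusted p of 0.00209 and 0.0212 by limma. In NLS-actin against WT-actin cells they were 2.93 ± 0.32 and 2.43 ± 0.34, with adjusted p of 0.000985 and 0.0052. All 4 probe sets of PTGS1 were lower in WT-actin against parental cells, with log2 fold changes from -3.17 to -1.78. The PTGS1 and SLCO2A1 calls were lost under Tukey's test and, against parental cells, without the intensity trend. Of 19 alternatives, the SLCO2A1 call was kept in 11 against parental cells and in 17 between the actin lines. That of PTGS1 was kept in 17 and 18. The PTGS1 calls were kept without any 1 array, and the SLCO2A1 call against parental cells was lost without WT-actin replicate 1 or 2 or without any 1 parental array. PLA2G4A, the phospholipase that frees arachidonic acid, was picked after its values were seen. It read 226, 204 and 278 in NLS-actin, 88.0, 119.8 and 66.7 in WT-actin, and 125, 192 and 131 in parental cells, and was not called in any comparison. The 2 cyclooxygenase genes thus had different profiles: PTGS2 was somewhat lower on all 6 actin-line arrays without a call, and PTGS1 was called lower in WT-actin cells.

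Of 32 measured chemokines other than the members, none was called against the parental line in either actin line, and 1 was called between them. CCL26 (eotaxin 3), an eosinophil chemoattractant, read 196, 192 and 214 in NLS-actin, 57.9, 60.4 and 71.1 in WT-actin, and 161, 140.1 and 124 in parental cells. The 3 lines did not overlap, with NLS-actin highest and WT-actin lowest. NLS-actin against WT-actin cells gave CCL26 a log2 fold change of 1.67 ± 0.27, with an adjusted p of 0.0147 by limma, and 0.51 ± 0.27 and -1.16 ± 0.27 in NLS-actin and WT-actin against parental cells without a call. The call was lost without NLS-actin replicate 1 or 3 or WT-actin replicate 2. CCL7, CCL11, CCL8 and CCL1, the neighbours of CCL2 on chromosome 17, had log2 fold changes of -0.76, 1.16, 0.52 and 0.36 in NLS-actin against parental cells, none of them called. CCL2 was the only called gene among the 5 measured genes of this stretch, but the 95 percent intervals of its neighbours were wide. That of CCL7 ran from -2.68 to 1.15 and so held the CCL2 value of -2.40. Those of CCL11, CCL8 and CCL1 did not, with lower ends at -0.76, -1.25 and -1.44. Of 27 other cytokines none was called in any comparison. LIF, a cytokine of the IL6 family, read 212, 144 and 216 in NLS-actin, 267, 322 and 510.1 in WT-actin, and 294, 281 and 299 in parental cells, which in NLS-actin against parental cells came to -0.63 ± 0.28 on the log2 scale with an adjusted p of 0.753. IL1RN, the natural antagonist of interleukin 1, was bright in all lines, at 7738 to 9289 in NLS-actin, 7708 to 10529 in WT-actin and 5978 to 9315 in parental cells.

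**Figure D4:**
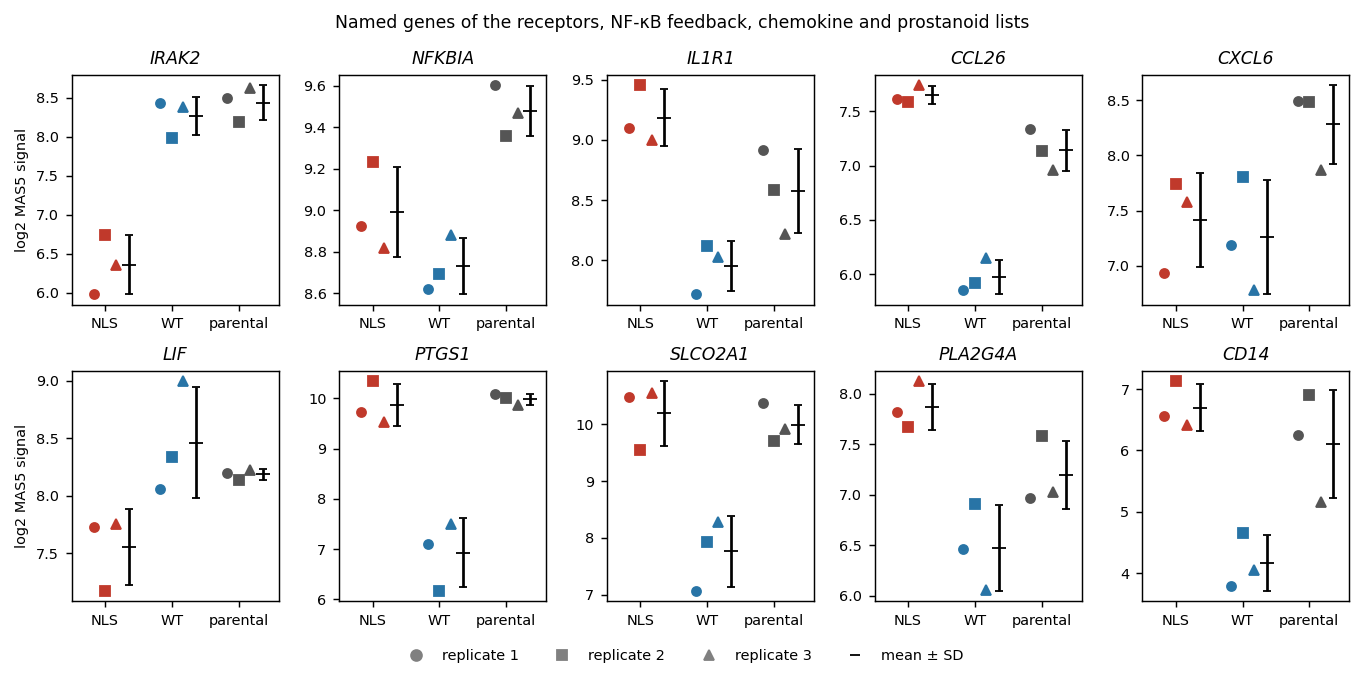
Log2 MAS5 signal (vertical axis, a different range in each panel) of 10 genes of the circuit outside the members in NLS-actin, WT-actin and parental cells. Points are arrays and the bar is the mean ± SD of 3 arrays; IRAK2 is low in NLS-actin cells (63.2 to 107), and PTGS1 and SLCO2A1 are low in WT-actin cells.

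**Figure D5:**
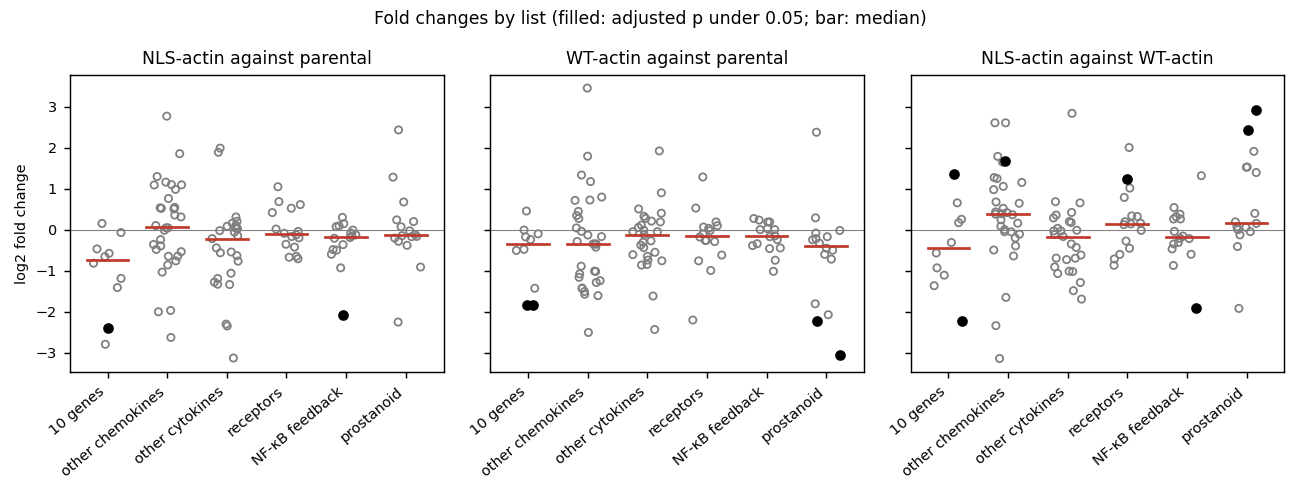
Log2 fold change (vertical axis) of the 10 genes and of the 5 lists around them in the 3 comparisons, with 1 point a gene, filled at an adjusted p under 0.05, and a bar at the median of each list. The median of the 10 genes is -0.74 in NLS-actin against parental cells, below those of the 5 lists.

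The genes whose log2 signal followed CCL2 most closely over the 9 arrays, among 9886 other genes above the median level, were HEATR5B, STARD3NL, MINDY3, PI4KB and BCR, with Pearson r from 0.929 to 0.974. Those closest to CXCL8 were TLN1, IDH3A, CENPI, TSPYL5 and TENT4A, with r from 0.928 to 0.97. These r describe likeness over 9 arrays of 3 lines and were the highest among all candidates. Most of these genes moved far less than the chemokine they resembled: in NLS-actin against parental cells HEATR5B had a log2 fold change of -0.33 against -2.40 for CCL2, and TLN1 of -0.18 against -1.19 for CXCL8. TSPYL5 came nearest to CXCL8 in size, at -1.13 in NLS-actin and -1.22 in WT-actin against parental cells.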

How the data were processed

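Total RNA of the 9 samples was hybridised as cRNA to human U133 Plus 2.0 arrays. The authors processed the scans with MAS5 and deposited linear intensities, whose trimmed mean (2 percent off each end) ranged from 500.041 to 500.058. The version and the scaling target of MAS5 are not given in the sources used here, and the arrays' number limits the precision. The study names 3 experimental replicates a line, and it is not stated whether these were separate cultures, so that p-values measure the spread between these arrays, which may be technical.

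Signals were taken as log2 without an offset. Of 54613 probe sets other than the 62 controls, 41091 carried 1 gene symbol and were kept, 1801 with several symbols and 11721 with none were not named, and a gene's value was that of its brightest probe set by mean log2 signal. Symbols were updated through Entrez identifiers for 41037 probe sets. Lines were compared with limma 3.58.1 (R 4.3.3) with 1 mean a line, a shared spread that followed intensity, and Benjamini-Hochberg adjustment over 19775 genes at 0.05. The fit was tested on simulated data of NLS-actin against parental cells with 200 changed genes among 19775. A 2-fold change was found in 52.5 percent of cases and a 4-fold change in 89.5 percent, with 4.44 percent false calls. The changed genes were drawn only from those above the median level, whereas 4 members lay below it. Noise was simulated independently for each array, whereas the real arrays deviated together. The share found also depends on the number of changed genes, because the adjusted p is stricter when fewer genes change. In the real comparison 22 genes were called lower. These shares therefore do not cover dim genes, shared deviations or a smaller number of changed genes.

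Arrays carry replicate numbers in the labels. Neither the labels nor the study say that arrays of 1 number belong together. Arrays of the same number in NLS-actin and parental cells deviated together (correlations of 0.234, 0.79 and 0.416), so these numbers were taken to pair them. Crossed pairs also correlated, NLS-actin 1 with parental 3 at 0.534 and NLS-actin 3 with parental 1 at 0.336, so the pairing is uncertain. Arrays of the same number in WT-actin and parental cells did not deviate together (-0.0766, -0.355 and 0.515).

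The members, the lists and the tests were chosen with earlier results of these data known. The text names all 10 members, from each list the genes called in any comparison, or else up to 2 with the smallest unadjusted p in NLS-actin against parental cells among those above the median level (LIF, IL1RN, KRT5, DSP and COL1A1 among them), and the 5 genes most like CCL2 and CXCL8. The alternatives were another normalization, an offset of 8.078, a filter on dim genes, no intensity trend, replicate blocks, fits of 2 lines, the mean of all probe sets, every probe set tested, Tukey's test, omission of 3 arrays and of each array in turn. Promoter windows of RefSeq were matched by symbol for 9 of 10 members, all but CCL2, and their motifs were read in the 250 bases before the start. Windows were aligned with Biopython 1.88, and figures were drawn with matplotlib 3.10.9. The study's reporter, PCR and imaging data were not used here.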

Additional observations from a re-analysis of the deposited data

Results flagged for a closer look

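The difference between the actin lines was itself tested over all 19775 genes, of which 0.339 percent were called lower and 0.389 percent higher in NLS-actin against WT-actin cells. Among the members the called genes were CCL2, with a log2 fold change of -2.22 (all 3 NLS-actin arrays below all 3 WT-actin arrays), and CXCL1, with 1.36 (all 3 above). Among the genes around them that the text names, IRAK2 was lower in NLS-actin cells, at -1.91, and CCL26 at 1.67, IL1R1 at 1.23, PTGS1 at 2.93, SLCO2A1 at 2.43 and CD14 at 2.53 were higher. CD14 read 94.0, 139.7 and 84.9 in NLS-actin, 13.8, 25.3 and 16.6 in WT-actin and 76.2, 119 and 35.6 in parental cells. Its adjusted p was 0.0437 by limma, and this call was lost without any 1 of 7 arrays and without the 3 arrays that stood apart. PLA2G4A lay above the parental mean on all 3 NLS-actin arrays and below it on all 3 WT-actin arrays. Its difference between the actin lines, a log2 fold change of 1.40, did not pass (adjusted p of 0.0804 by limma), and the contrary shifts against the parental mean were not tested as such.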

How the results depend on the processing

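In NLS-actin against parental cells 1 member was called, and 0 were called under quantile normalization, a filter on dim genes, no intensity trend, the mean of all probe sets, Tukey's test or the replicate block within NLS-actin and parental arrays. The replicate block on these 6 arrays alone, added after the data were seen, called 3 members and 378 genes in all. Leaving out each array gave 0 to 1. In WT-actin against parental cells 2 members were called, and 0 under no intensity trend or Tukey's test, 1 under the mean of all probe sets, and 0 to 2 when each array was left out. In NLS-actin against WT-actin cells 2 were called, and 0 under no intensity trend, Tukey's test or a fit of 2 lines only, and 0 to 2 when each array was left out. The replicate block over all 9 arrays changed no call of a member. Fewer arrays in a fit mean a less certain spread, and otherwise the cause was not tested. A block on 6 arrays was not run for the WT-actin arrays, whose deviations did not follow the replicate numbers.

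Directions turned for small or dim values, apart from IRAK2 in NLS-actin against WT-actin cells. That IRAK2 value of -1.91 was called and came from a probe set brighter than the array medians. With the mean of all probe sets the log2 fold changes became 0.46 for CXCL2 and 0.045 for PTGS1 in NLS-actin against parental cells, and 0.99 for IRAK2 and -0.066 for NFKBIA in NLS-actin against WT-actin cells. Quantile normalization gave 0.042 for CXCL3 and 0.090 for IL1B in WT-actin against parental cells and -0.024 for CXCL2 in NLS-actin against WT-actin cells. Without the 3 arrays that stood apart CXCL3 was 0.17 in WT-actin against parental cells and CXCL6 was -0.040 in NLS-actin against WT-actin cells.
Leaving out each array moved the log2 fold change over these ranges. In NLS-actin against parental cells it ran from -0.24 to 0.17 for CXCL2, -0.47 to 0.61 for CXCL3 and -0.36 to 0.053 for PTGS1. In WT-actin against parental cells it ran from -0.56 to 0.28 for CCL2, -0.72 to 0.22 for CXCL3, -0.30 to 1.03 for IL1A and -0.45 to 0.27 for IL1B. In NLS-actin against WT-actin cells it ran from -0.054 to 0.71 for CXCL3 and -0.079 to 0.43 for CXCL6.
The signals of CXCL2, CXCL3 and CCL20 were below the median of every array, so that differences at these levels were not resolved here.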
